A study of Mus musculus with 48 samples.

Results

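The genes described here encode the proteins of the cytosolic ribosome. They were taken as the genes with a probe set of a single symbol that starts with Rpl or Rps followed by a number (with at most a final a, x or l), plus Rpsa, Rplp0, Rplp1 and Rplp2, without the Rps6k kinases, and each gene was read through its brightest probe set. The rule found 46 genes among 18193 with a single symbol, 24 of the large and 22 of the small subunit, on 100 probe sets. Of these, 44 genes (23 large, 21 small) passed the filter on low values and were tested. Rpl39l, a paralog known from testis, and Rps4l did not pass. A further 110 probe sets carry a ribosomal protein symbol beside other symbols, and 28 ribosomal protein symbols occur only on such probe sets. They are counted as a group and not named as genes.

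The samples were fibroblast lines from littermate mouse embryos of day E14.5 (whole embryo without head and organs), from Zfp36 +/- parents of strain 129/B6: Zfp36 -/- (KO) and Zfp36 +/+ (WT), by the labels apparently 1 line of each, so that genotype and line cannot be told apart. Both lines were held in 0.5% serum for 16 h, stimulated with 10% serum (90 min) and treated with the transcription blocker actinomycin D for 0, 30, 60, 90 or 120 min. The dose is 0.5 ug/ml in the sample names and 5 ug/ml in the series text, and which of these was applied is unsettled. Each sample was 3 combined dishes, and the 10 groups held 5 arrays each, 1 from each of 5 experiments, each done on its own day with KO and WT in parallel, except that the KO groups of 0 and 60 min held 4 (23 KO and 25 WT arrays). KO at 0 min had no array from experiment 5, and KO at 60 min none from experiment 4.

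Zfp36 encodes tristetraprolin (TTP), which binds AU-rich elements in mRNAs and speeds their deadenylation and decay. The mRNAs of ribosomal proteins are among the most abundant and longest-lived of a mammalian cell, and are a usual example of mRNAs that transcription arrest leaves in place for hours. Most begin with a C and a run of pyrimidines at the 5′ end (terminal oligopyrimidine, TOP, mRNAs), through which mTOR and the binding protein Larp1 set their translation.

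Values are log2 signals, and a difference of 1 is 2-fold (array medians 8.47 to 8.56, maxima 13.28 to 13.43). Brightness sets the resolution here: 37 of the 44 members averaged above 10, 31 above 12 and 7 above 13, close to the top of the arrays. The arrays of a group correlated at a mean r of 0.969 to 0.989 with each other. The Zfp36 probe set read 9.60, 9.58, 9.28 and 9.59 in KO at 0 min, against 9.84, 10.14, 9.83, 9.69 and 9.83 in WT, and it does not check the labels, since no source places its probes relative to the disrupted part. Of 11 fibroblast markers, 8 had medians above 10 in both lines, and no epithelial, blood, endothelial or muscle marker had (0 of 6, 0 of 6, 0 of 4 and 0 of 5), while 1 of 5 neural markers had. Since bulk RNA was measured, fewer cells of a kind and less RNA per cell cannot be told apart.

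The members differ in the runs of C or T around their annotated starts. RefSeq's table for GRCm38.p6 held annotated start sites for 40 of the 46 members. In windows of 15 bases before the start and 15 from it, taking for each gene the listed start with the longest run, 18 of 40 (45.0%) held at least 8 consecutive C or T on the gene's strand, against 13.9% of 27025 genes (45.0% and 25.5% on either strand). The 5 letters CTTTC, which lie within such a run in 10 of the 11 members that hold them, were found in 27.5% of members and 4.57% of all genes on the gene's strand, and in 27.5% and 7.76% on either strand. A match describes the letters near the annotated start and no measured site. A run may lie anywhere in the window, before the start (Rps27l, positions -12 to -4 with the start as 0) or within the transcript (Rpl39, 6 to 13). The shares are therefore not counts of TOP 5′ ends. The windows below belong to the members with the clearest differences between lines or changes over time, with the longest C or T run in capitals, each written 5′ to 3′ on the gene's strand.
Rps27l (chr9:66946071-66946100, plus strand): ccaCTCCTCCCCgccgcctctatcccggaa
Rpl22 (chr4:152324421-152324450, plus strand): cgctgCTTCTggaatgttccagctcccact
Rplp0 (chr5:115559452-115559481, plus strand): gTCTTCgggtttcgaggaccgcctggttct
Rpl7a (chr2:26910792-26910821, plus strand): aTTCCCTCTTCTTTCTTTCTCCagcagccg
Rps6 (chr4:86857353-86857382, minus strand): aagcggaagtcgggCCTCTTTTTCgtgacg
Rpl14 (chr9:120571502-120571531, plus strand): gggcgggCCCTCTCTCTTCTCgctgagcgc
Rpl12 (chr2:32961697-32961726, plus strand): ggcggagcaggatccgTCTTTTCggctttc
Rps9 (chr7:3704026-3704055, plus strand): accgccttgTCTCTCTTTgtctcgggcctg
Rpl7a has the longest run of the 39 tested members in the table (21 bases), and Rpl22 and Rplp0 have runs of 5. The difference between lines was described beside the run: the 18 tested members with a run of at least 8 had a median KO minus WT of 0.0031, and the 21 without one a median of -0.017.

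**Figure D1:**
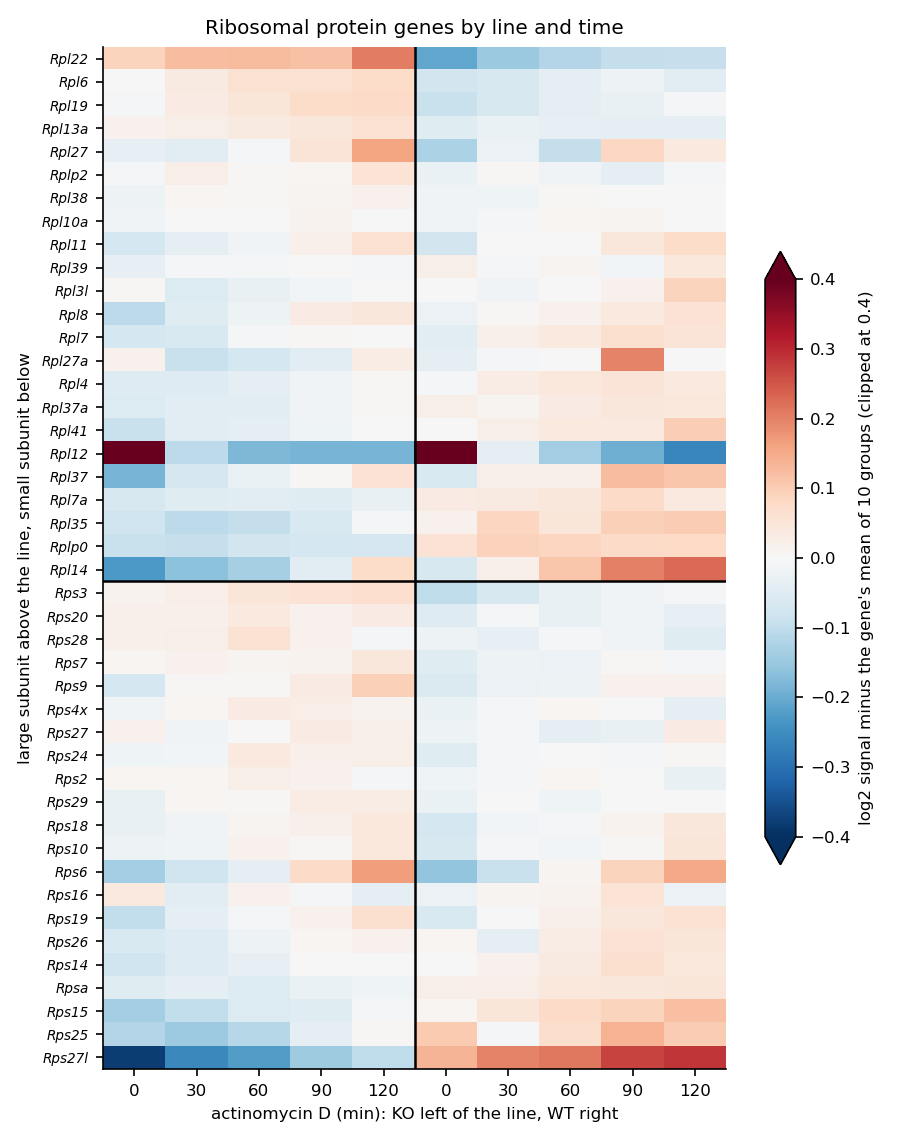
Group means of the 44 tested ribosomal protein genes, as log2 signal minus the gene's mean over the 10 groups, with KO left and WT right of the vertical line, actinomycin D time (min) running left to right in each, and large-subunit genes above the horizontal line. Most rows stay within 0.1 of their mean, Rps27l and Rpl22 differ between KO and WT, and Rpl12 (beyond the colour limit of 0.4) is high at 0 min alone.

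Over 120 min of transcription arrest 1 of the 44 ribosomal protein mRNAs, Rpl12, passed the test for a fall, and did so in both lines (2.27%, against a background of 12.2% of all genes in KO and 16.4% in WT). The median change of the 44 members, 120 min minus 0 min, was 0.062 in KO and 0.044 in WT, beside medians of 0.0068 and 0.033 over all 12999 genes tested. When arrays were centred on the brightest 10% of the other probe sets, the members' median turned to -0.022 in KO and -0.014 in WT. The medians over all genes moved with it, to -0.077 and -0.024. Immediate-early genes such as Fos and Egr1, which serum switches on and whose mRNAs decay within minutes, give the contrast on the same arrays: 23 of 24 fell in KO and 22 of 24 in WT, by medians of -1.56 and -1.68. Among the 37 members averaging above 10 the lowest change was -0.025 in KO and -0.028 in WT, and no 95% confidence interval reached below -0.092 in KO or -0.080 in WT. These limits depend on the scaling. After quantile normalization the lowest changes were -0.058 and -0.052 and the lowest bounds -0.16 and -0.12, and after centring on the brightest 10% they were -0.11 and -0.085 with bounds of -0.19 and -0.16, where 3 of the 37 fell in KO and 0 in WT by limma. Over all genes 24.5% fell in KO and 22.6% in WT under that centring. The per-array median was taken over the 37 members averaging above 10, each gene set to its mean over the 48 arrays. In KO it ran from -0.050 to -0.022 at 0 min, -0.060 to 0.025 at 30 min, -0.032 to 0.047 at 60 min, -0.012 to 0.030 at 90 min and 0.017 to 0.047 at 120 min. In WT it ran from -0.044 to 0.0029, -0.025 to 0.027, -0.015 to 0.033, -0.011 to 0.045 and -0.035 to 0.062 at those times. By this median KO arrays at 120 min all lay above KO arrays at 0 min, while WT arrays at these times overlapped.

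**Figure D2:**
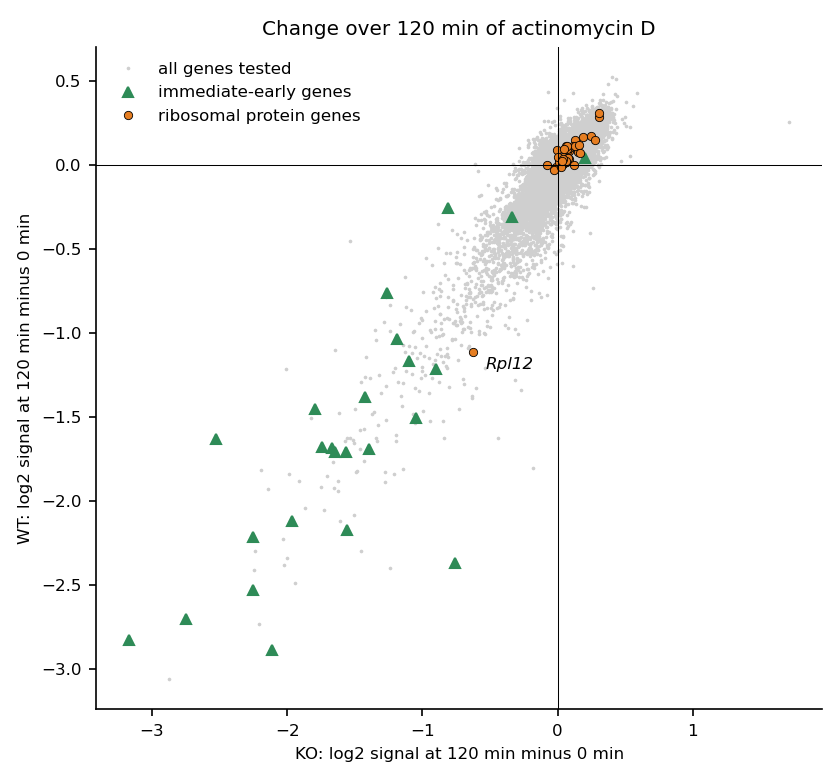
Change in log2 signal over 120 min of actinomycin D in KO (horizontal) and WT (vertical) for all genes tested (grey), the immediate-early genes (triangles) and the ribosomal protein genes (circles). All ribosomal protein genes but Rpl12 lie between -0.081 and 0.31 on both axes, with medians of 0.062 and 0.044, and most immediate-early genes lie below -1. Under centring on the brightest 10% the medians turn to -0.022 and -0.014, beside -0.077 and -0.024 over all genes.

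The slope over time, fitted in all arrays as log2 per h, differed between KO and WT for 0 of 44 members by limma with Benjamini-Hochberg adjustment (1 at an unadjusted p under 0.05, Rpl12), against 1.08% of all genes with a higher and 0.323% with a lower slope in KO. Without experiment 3, 1 member was called, with a lower slope in KO (background 0.292% lower). That sign is opposite to the slope difference of Rpl12 in all arrays, 0.23. The estimate lay within 0.1 of 0 for 43 of 44 members and its whole 95% interval for 37, so a difference of that size was left unresolved for the rest. Slopes on their own passed the test as rises in 16 members in KO and 15 in WT (36.4% and 34.1%, background 15.7% and 15%), and as a fall in Rpl12 alone (2.27% of the 44 in each line, background 14.6% and 17.8%). These counts move with the processing. They were 5 rises and 5 falls in KO and 3 and 4 in WT after centring on the brightest 10%, where 6.54% of all genes rose and 28.5% fell in KO, and 6.97% and 25.1% in WT. After centring on array medians they were 24 and 25 rises (background 22.1% and 28.1%). Without experiment 2 there were 9 in KO (background 10.5%), and without the arrays at 0 min 7 in KO and 2 in WT (background 6.96% and 5.13%).

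Of single members, 11 rose over 120 min in KO and 11 in WT (background 12.8% and 11.1%), 7 of them in both lines. The counts were 3 and 3 under centring on the brightest 10%, with 5 falls in KO and 1 in WT there. Over all genes that centring gave 4.99% rising and 24.5% falling in KO, and 5.37% and 22.6% in WT. In KO 7 were called without experiment 2 or without experiment 3 (background 7.31% and 8.53%). Experiments 4 and 5 alone hold only the experiment 4 array of KO at 0 min. The members' median change in KO there was 0.0705, beside 0.017 over all genes. In WT 7 were called without experiment 2 or without experiment 5, and 3 in experiments 1 to 3 alone.

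Rps6, the small-subunit protein that S6 kinases phosphorylate after serum, rose most among small-subunit members. Its signal in KO was 9.99, 10.01, 9.96, 9.98 and 9.85 at 120 min, against 9.59, 9.66, 9.59 and 9.78 at 0 min. In WT it was 9.91, 9.88, 9.96, 10.08 and 9.90 at 120 min, against 9.72, 9.65, 9.51, 9.72 and 9.57 at 0 min. No array at 120 min overlapped those at 0 min in either line, and the change was 0.30 ± 0.06 in KO (SE, adjusted p = 5.8e-05) and 0.31 ± 0.05 in WT (adjusted p = 1.1e-05) by limma. These values come from the brightest Rps6 probe set, which averaged 9.79. The other tested one was dimmer and ran from 8.60 to 8.88 over KO arrays and 8.60 to 8.79 over WT arrays, so it did not show changes of this size. What either probe set detects was not tested. In experiments 4 and 5 alone, with only the experiment 4 array of KO at 0 min, the KO change of the brightest probe set was 0.14.

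Rpl14, a large-subunit protein read through a probe set that was also dim for a member (mean 9.58), rose as much. Its signal in KO was 9.59, 9.61, 9.68, 9.71 and 9.63 at 120 min, against 9.29, 9.27, 9.31 and 9.49 at 0 min. In WT it was 9.66, 9.62, 9.69, 10.05 and 9.95 at 120 min, against 9.50, 9.50, 9.25, 9.66 and 9.62 at 0 min. The times separated in KO and overlapped in WT, where experiments 4 and 5 were the highest at both times. The change was 0.30 ± 0.09 in KO (limma, adjusted p = 0.0107) and 0.29 ± 0.08 in WT (adjusted p = 0.00875). The KO call did not hold without experiment 1 (0.30, adjusted p = 0.0596 by limma). In experiments 4 and 5 alone, with only the experiment 4 array of KO at 0 min, the KO change was 0.18.

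Among the other members, Rps27l rose by 0.28 ± 0.05 in KO (adjusted p = 0.00012 by limma) and 0.15 ± 0.05 in WT (adjusted p = 0.0273). The WT call was lost without experiment 2 (0.12, adjusted p = 0.112), without experiment 3 and without experiment 5. Rps19, whose human counterpart is mutated in Diamond-Blackfan anaemia, rose by 0.16 in KO (adjusted p = 0.000302 by limma) and 0.12 in WT (adjusted p = 0.00371), and Rpl11, which binds the p53 regulator Mdm2, by 0.13 and 0.15. Rpl22 rose by 0.12 in each line. Rpl37 passed the test in KO (0.25, adjusted p = 0.0104 by limma) and had 0.17 in WT (adjusted p = 0.0598), where it passed too with the experiment as a block (adjusted p = 0.0174). Rps9 rose by 0.17 in KO beside 0.07 in WT (adjusted p = 0.157). These differences between lines did not pass the test of the slope difference. Nor did they pass that of the difference of the changes, added after seeing the data. There the limma adjusted p was 0.556 for Rps27l, 0.844 for Rpl37 and 0.555 for Rps9. Rps14, lost with the long arm deletion of the human 5q- syndrome, and Rpl19 rose by 0.083 and 0.081 in KO (limma, adjusted p = 0.0292 and 0.0348), and had -0.0011 and -0.0027 under centring on the brightest 10%.

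Rpl12, a large-subunit protein at the base of the ribosomal stalk, was the 1 member that fell. Its single-symbol probe set was also the dimmest of all members (mean 8.34). It read 8.07, 8.20, 8.09, 8.26 and 8.17 in KO at 120 min, against 8.81, 8.66, 8.75 and 8.91 at 0 min. In WT it read 8.02, 8.02, 8.11, 8.10 and 8.15 at 120 min, against 9.40, 9.41, 8.98, 9.28 and 8.89 at 0 min. The fall was nearly complete by 30 min (means 8.24 in KO and 8.30 in WT), and the WT mean at 120 min, 8.08, lay under 8.13, the highest 5th percentile of any array, which was taken as the floor. The fall as measured was 1.54-fold in KO, to a mean near the floor (log2 -0.63 ± 0.07, limma adjusted p = 1.6e-09). In WT it was at least 2.09-fold (log2 -1.11 ± 0.07, adjusted p = 3.1e-18). At 0 min KO stood below WT by 0.41, and at 120 min the lines did not pass the test. At 120 min the WT mean was under the floor and the KO mean 0.025 above it, with KO arrays of 8.07 and 8.09 under it. The KO minus WT difference of the changes was added after seeing the data. With WT set to the floor it was 0.44, close in size to the gap of 0.41 at 0 min. Since both lines ended at or near the floor, this difference gives no bound on a difference in decay. In the fit as measured it passed for 1 of 44 members, Rpl12 (adjusted p = 0.00317 by limma, background 0.769% above and 0.162% below 0), while the difference of slopes was 0.23 (adjusted p = 0.362). The 2 tested probe sets that carry several symbols with Rpl12 among them averaged 12.47 and 12.41 and changed by 0.075 and 0.034 in KO and by 0.063 and 0.020 in WT, none of which passed the test. What the dim probe set detects was not tested.

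**Figure D3:**
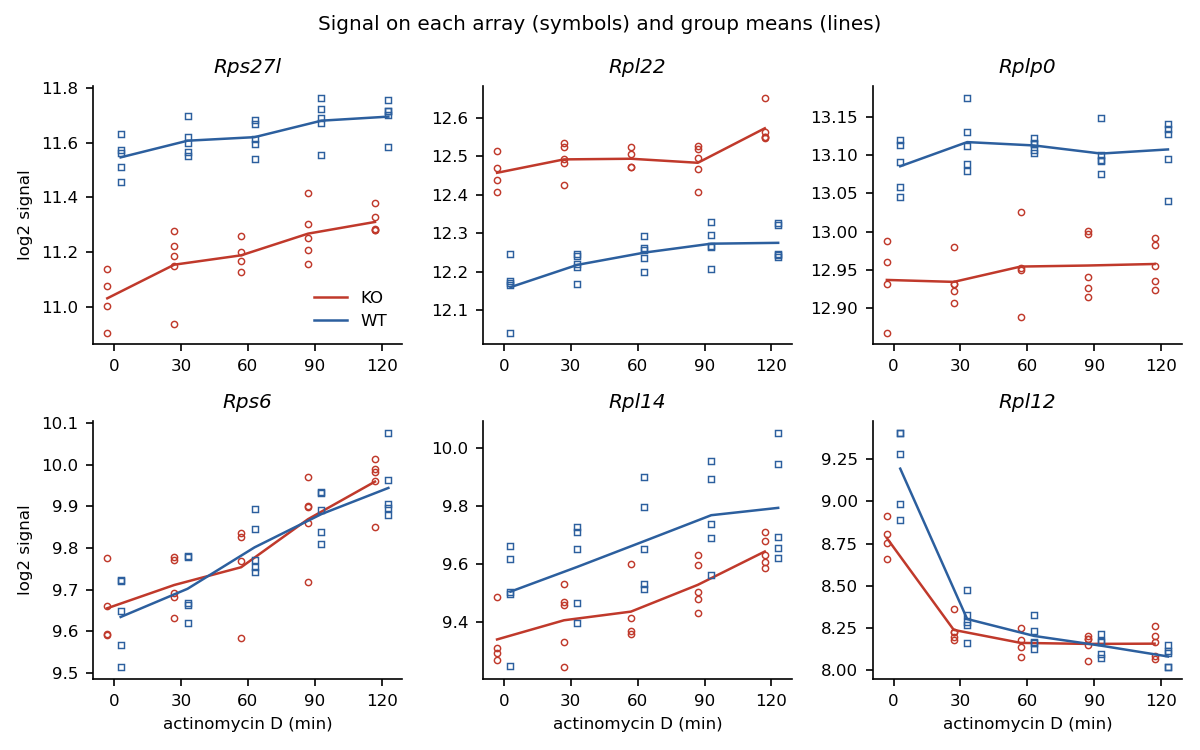
Log2 signal of 6 ribosomal protein genes on every array (KO circles, WT squares) against minutes of actinomycin D, with lines through the group means. KO lies below WT on every array for Rps27l and Rplp0 and above WT for Rpl22. Rps6 and Rpl14 are higher at 120 min than at 0 min in both lines, and Rpl12 is lower from 30 min on. The vertical axes differ between panels and do not start at 0.

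Between the lines, averaged over the 5 times, 9 members were higher and 16 lower in KO (20.5% and 36.4%, against a background of 30.4% and 26.4% of all genes). Under centring on the brightest 10% the counts were 6 and 18 (background 28.2% and 29%). A share of 56.8% called is no more than genes at large show between these lines, and most of these differences were small: 18 of the 25 were under 0.1, and 20 of 25 had their sign in all 5 experiments. The median over the 44 members was -0.015, beside -0.0055 for all genes. KO and WT arrays did not overlap for 4 members, 1 above and 3 below (background 3.23% and 3.07% of genes): Rpl22 above, and Rps27l, Rplp0 and Rpl7a below.

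**Figure D4:**
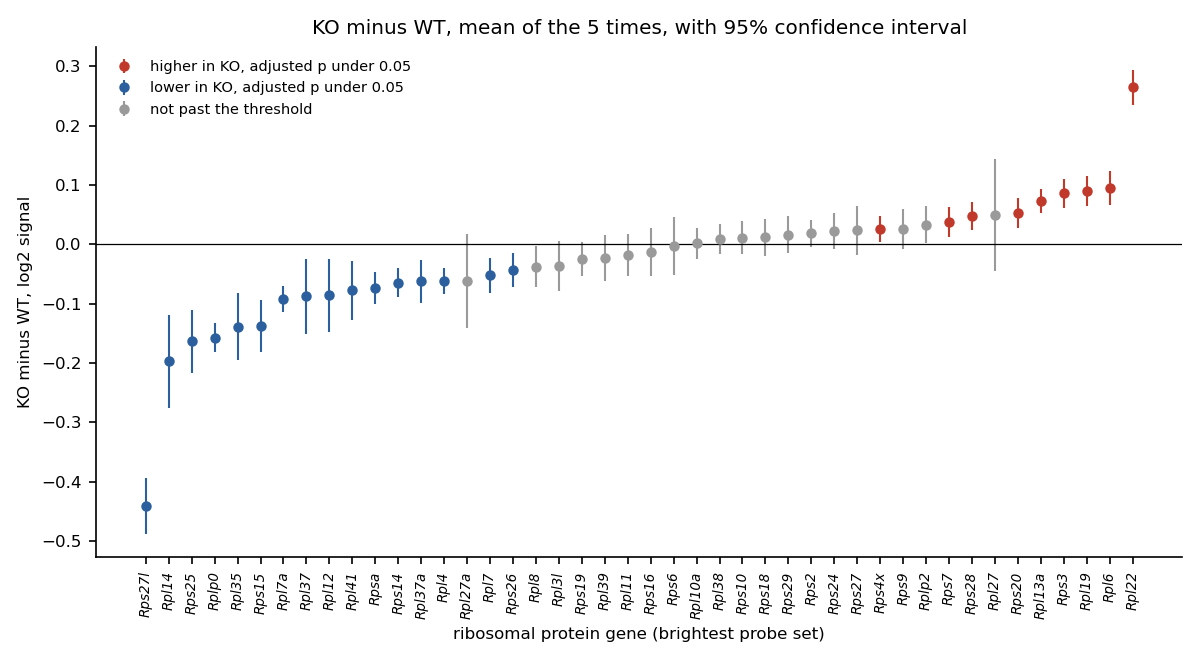
KO minus WT in log2 signal, mean of the 5 times, for the 44 tested ribosomal protein genes ranked from lowest to highest, with 95% confidence intervals. Rps27l (-0.44) and Rpl22 (0.26) stand at the ends, and most other genes lie within 0.1 of 0.

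Rps27l, a paralog of Rps27 known as a target of p53, was the member that differed most. It ran from 10.905 to 11.42 with a median of 11.21 over the 23 KO arrays, against 11.46 to 11.77 with a median of 11.62 over the 25 WT arrays. At 0 min it read 11.001, 11.08, 10.905 and 11.14 in KO, against 11.56, 11.46, 11.51, 11.63 and 11.57 in WT. Every KO array lay below every WT array. Over the times it was 1.36-fold lower in KO (log2 -0.44 ± 0.02, limma adjusted p = 8.8e-21, lower in 5 of 5 experiments). Its other probe sets gave -0.39 and -0.46. Rps27 itself differed by 0.024 (adjusted p = 0.343 by limma).

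Rpl22, a large-subunit protein with RNA-binding roles outside the ribosome that is needed for T-cell development in mice, showed the opposite. It ran from 12.41 to 12.65 (median 12.505) in KO, against 12.04 to 12.33 (median 12.24) in WT, with no overlap. It was 1.20-fold higher in KO (log2 0.26 ± 0.01, limma adjusted p = 2.3e-20, higher in 5 of 5 experiments), with 0.30 and 0.22 in its other probe sets. Its paralog Rpl22l1, which is no member, was lower in KO by 0.13 (-0.13 ± 0.03, adjusted p = 0.000913 by limma).

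Rplp0, which anchors the acidic stalk proteins and is in common use as a reference gene, ran from 12.87 to 13.03 (median 12.94) in KO, against 13.04 to 13.18 (median 13.11) in WT. The lines did not overlap, by a margin of hundredths at the closest arrays, and the difference was -0.16 ± 0.01 (1.12-fold lower, limma adjusted p = 1.4e-15). Rpl7a, named after its values were seen because its lines did not overlap, ran from 12.38 to 12.51 in KO, against 12.52 to 12.63 in WT (-0.093 ± 0.011, adjusted p = 5.4e-10). Both were lower in KO in 5 of 5 experiments, and neither passed the test for a change over 120 min in either line.

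Of the other large-subunit members, Rpl14 (-0.20) and Rpl35 (-0.14, with -0.11 to -0.12 in its 4 other probe sets) were lower in KO, and Rpl6 (0.094), Rpl19 (0.090) and Rpl13a (0.074, with 0.094 to 0.13 in its 3 other probe sets) were higher. Rpl13a is known in human cells for a second role in silencing inflammatory mRNAs. Of the small-subunit members, Rps25 (-0.16) and Rps15 (-0.14) were lower, and Rps3 (0.086), which lines the mRNA entry channel, and Rps20 (0.052) were higher. Adjusted p-values by limma for these ran from 1.8e-08 for Rpl13a to 0.000421 for Rps20. Rpl6, Rps3 and Rps20 had smaller differences in experiments 4 and 5 alone, of 0.030, 0.037 and 0.012. Rpl14 was lower in 4 of 5 experiments and Rpl6 higher in 4 of 5, the others in 5 of 5.

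At single times the counts were smaller. At 0 min 4 members were higher and 7 lower in KO (9.09% and 15.9%, background 16% and 13%), and 6 and 7 after quantile normalization (background 17% and 14.4%) or 2 and 10 after centring on the brightest 10% (background 14.2% and 15.5%). Without experiment 2 the counts were 2 and 4 (background 13.3% and 9.69%), and without experiment 5 they were 2 and 9 (background 15.7% and 12.5%). At 120 min 9 of 44 passed the test (20.5% in either direction, background 36.5%), 5 higher and 4 lower in KO. The split was 7 and 7 with the experiment as a block, 4 and 9 after quantile normalization, 3 and 5 after centring on medians and 1 and 13 on the brightest 10%. In those settings the shares over all genes were 26.5% and 18.2%, 19.8% and 17.4%, 21.8% and 15.7%, and 17.8% and 21.6%. Without experiment 4 the lower count at 120 min was 2.

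Other members were named for a known second role, brightness or dimness. Rpsa, the laminin receptor precursor, was lower in KO by 0.074 (-0.074 ± 0.013, limma adjusted p = 6.7e-06) and Rps14 by 0.064 (-0.064, adjusted p = 1.6e-05). Rps19 (-0.025), Rpl11 (-0.017), Rps6 (-0.0029) and Rps29 (0.016) did not pass the test. The brightest members, Rps10 (mean 13.21), Rps29 (13.14) and the stalk protein Rplp2 (13.14), had 0.011, 0.016 and 0.033, none of which passed. With the experiment as a block Rplp2 passed (0.035, adjusted p = 0.0225 by limma). Rpl3l, the heart and muscle paralog of Rpl3, was near background (8.50) with -0.036 and no call. The probe set of Rps16 read as low (8.50, -0.013, no call). Whether it detects the Rps16 mRNA was not tested, so the value gives neither the level of that mRNA nor its difference between lines. Rpl39 had -0.023 (adjusted p = 0.344 by limma).

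Probe sets of the same gene mostly gave the same reading of the lines. Among 18 members with further probe sets averaging above 10, 34 of 36 further probe sets had the sign of the brightest, 35 of 36 lay within 0.1 of it, and 20 passed the test in the direction of a brightest one that passed too. None passed in opposite directions. The exception was a further probe set of Rps9, picked after its values were seen. It ran from 10.92 to 11.17 (median 11.06) in KO, against 12.06 to 12.56 (median 12.38) in WT, a difference of -1.30 ± 0.035 (limma adjusted p = 4e-32), while the brightest Rps9 probe set differed by 0.026 (adjusted p = 0.197). Both Rps9 probe sets are of types whose probes may match several transcripts, and which transcript differs was not tested.

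**Figure D5:**
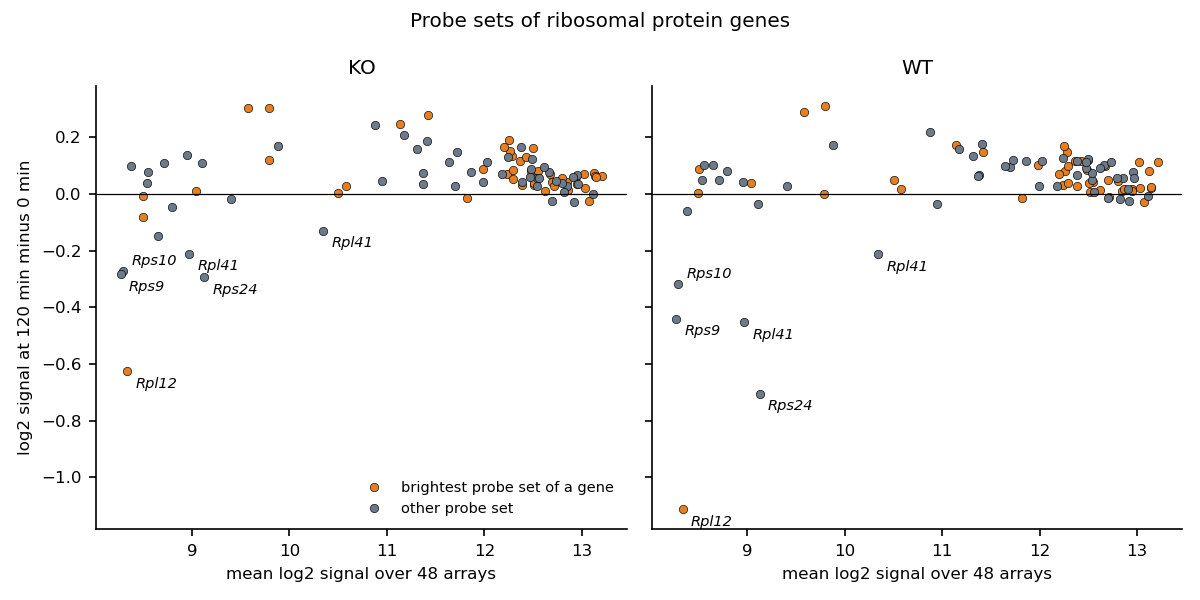
Change in log2 signal over 120 min of actinomycin D against mean log2 signal for the 94 tested probe sets of ribosomal protein genes, in KO (left) and WT (right). Probe sets above 11 lie between -0.027 and 0.28 in KO and -0.028 and 0.18 in WT, and the probe sets labelled by gene, which fell in both lines, are dim apart from 1 of Rpl41.

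Probe sets that fell over 120 min were nearly all dim. Of 17 probe sets of up to 10 with the suffix for a unique match, 5 fell in both lines, against 0 of 8 above 10 and, among the types that may match several transcripts, 0 of 4 up to 10 and 1 of 65 above. Besides Rpl12 they belonged to Rps24, Rpl41, Rps10 and Rps9, each with a brightest probe set that did not pass for a fall, and were named after their values were seen. The Rps24 one read 9.10, 9.13, 8.94, 9.29 and 9.18 in KO at 120 min, against 9.49, 9.29, 9.31 and 9.59 at 0 min. In WT it read 8.79, 8.77, 8.82, 9.08 and 8.97 at 120 min, against 9.69, 9.80, 9.32, 9.69 and 9.46 at 0 min. The change was -0.29 in KO and -0.70 in WT (limma, adjusted p = 0.013 and 4.75e-09), beside 0.041 and 0.050 in the brightest Rps24 probe set. The dim probe sets of Rpl41 (-0.21 and -0.45), Rps10 (-0.27 and -0.32) and Rps9 (-0.28 and -0.44) likewise fell in KO and WT, and a brighter one of Rpl41 (mean 10.34) by -0.13 and -0.21. What these dim probe sets detect was not tested.

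Related lists are given as counts beside the shares over all genes, which are 30.4% higher and 26.4% lower in KO between the lines, 12.8% rising and 12.2% falling over 120 min in KO, and 11.1% and 16.4% in WT. The 106 tested probe sets of several symbols had 24 higher and 32 lower in KO (22.6% and 30.2%). Over 120 min 30 rose and 3 fell in KO (28.3% and 2.83%) and 19 and 4 in WT (17.9% and 3.77%), with medians of 0.079 and 0.065. The 25 other TOP mRNAs had 5 higher and 10 lower in KO (20% and 40%), among them Eif4b (0.15) and Npm1 (0.11) higher and Vim (-0.17) and Eif3e (-0.16) lower. Over 120 min 6 rose and 1 fell in KO (24% and 4%), and 6 rose and 4 fell in WT (24% and 16%), with Npm1, the nucleolar protein nucleophosmin, falling in both (-0.17 and -0.26). Of 61 ribosome biogenesis factors, which assemble the subunits in the nucleolus, 11 rose and 10 fell in KO (18% and 16.4%) and 14 rose and 12 fell in WT (23% and 19.7%), and Nmd3, the export adaptor of the large subunit, fell in both lines (log2 -1.01 in KO and -1.27 in WT). The 22 genes of TOP mRNA control had 4 higher and 5 lower in KO (18.2% and 22.7%, both under the shares over all genes), with Eif4ebp1, an mTOR target that restrains translation, higher by 0.53 and Mtor by 0.25. Of 73 mitochondrial ribosomal protein genes, 28 were higher and 24 lower in KO (38.4% and 32.9%), from Mrpl23 (-0.80) to Mrpl24 (0.55), and 30 rose and 10 fell over 120 min in KO (41.1% and 13.7%) and 26 and 13 in WT (35.6% and 17.8%). Of 8 further genes listed for a related symbol (fusion genes, paralogs and an Rps19-binding protein), 4 were tested. The paralogs Rpl7l1 and Rpl22l1 were lower in KO (-0.17 and -0.13), as was Rps19bp1, which binds Rps19 and is no ribosomal protein (-0.24), and Fau did not pass (0.017, adjusted p = 0.778 by limma). No difference between these lists and the members was tested.

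Within groups the bright members moved together from array to array. After removing group means, the 37 members above 10 correlated with the mean of the other such members at a median r of 0.46 (from -0.14 for Rps28 to 0.80 for Rps20), beside a median of 0.095 over 12955 other genes and 0.22 over the 74 other genes averaging above 12. These values describe the 48 arrays, which share hybridisation and scaling, and carry no test. The genes whose 10 group means followed the members' mean most closely were Slc25a20, Nsa2, Ubxn2a, Retsat and Srp9 (r of 0.981 to 0.985 over 10 groups), a likeness fixed by how they were picked (KO minus WT of -0.084 to -0.14, change over 120 min of 0.22 to 0.31 in KO and 0.16 to 0.24 in WT).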

How the data were processed

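The deposited table gives 1 log2 signal per probe set and array for 48 arrays. Log2 is inferred from the values, since the deposited file names no base, and probe summary, background correction and scaling by the authors are not given in the sources used here. Arrays were Affymetrix mouse chips hybridised with 15 ug of labelled cRNA for 16 h, per the labels' protocols. Symbols came from the platform's probe table. Probe sets above the array median in at least 4 arrays were kept (27500 of 45037 other than 64 controls). limma 3.58.1 (R 4.3.3, trend and robust) was fitted on all of them, with 1 mean per group or 1 line per cell line over time, two-sided, Benjamini-Hochberg threshold 0.05, and tested on simulated data. P-values measure the spread of arrays around the fit, with 1 line each, and array number limits precision. In the mean over times and in slopes, arrays of 1 line from the same experiment counted as independent. Those p-values therefore do not measure the spread between experiments. For Rpl14, KO minus WT by experiment was -0.23, -0.15, 0.029, -0.27 and -0.34, beside an SE of 0.039 for the mean.

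Members and lists were chosen with earlier results of these data known. Genes named are the 6 highest and 6 lowest passing members per comparison, listed paralogs and members of known second roles, the 3 brightest and 3 dimmest, and the 5 genes most alike. Per the series text, numbers mark experiments with both lines on 1 day: same-numbered arrays deviated with r of -0.248 to 0.604 (median 0.172, 16 of 23 over 0.1). Alternatives were the experiment as a block, filters, scalings, background subtraction, plain limma, all probe sets, experiments left out and slopes without 0 min.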

Additional observations from a re-analysis of the deposited data

Results flagged for a closer look

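Among 90 groups of 4 or 5 arrays examined, 4 had 1 array far from the rest by Dixon's test. Examined were 7 genes named with per-array values, the second Rps9 probe set and the median of the 37 members above 10, in 10 groups each. Chance alone flags about 1 group in 20. Rpl22 in KO at 120 min had an array at 12.65, with the next at 12.56. Rpl7a in KO at 120 min had an array at 12.43, with the next at 12.49. Rpl12 in KO at 30 min had an array at 8.36, with the next at 8.23. The second Rps9 probe set in KO at 90 min had an array at 10.95, with the next at 11.08. For Rpl12 the change over 120 min differed between the lines, by 0.49 on the log2 scale (KO minus WT, limma, added after seeing the data). At 120 min the WT mean was under the floor and the KO mean near it. The difference (0.44 with WT set to the floor) therefore gives no bound on a difference in decay.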

How the results depend on the processing

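Of 102 calls on single members followed through all alternatives, 1263 of 1563 values kept their direction and side of the threshold, 296 lost the threshold and 4 reversed. All 4 reversals came with centring on the brightest 10% of other probe sets (slope in KO of -0.00098 for Rpl19 and -0.010 for Rpl4, change in KO of -0.0027 for Rpl19 and -0.0011 for Rps14). For the lines' mean difference 13 of 25 calls held in every alternative, for the change over 120 min 1 of 12 in KO (Rpl12) and 3 of 12 in WT (Rpl12, Rpl14 and Rps6). Below, counts are members called, and the cause of a moved count was not tested. The shares over all genes moved with the settings too, and are given for some of them above. The replicate block lost no call and moved only the lower count at 120 min by over 1.5 times, to 7 from 4. With no filter on low values, 2 were higher at 0 min and 2 lower at 120 min. Quantile normalization gave 8 slope rises in KO and 9 lower at 120 min. Centring on medians gave 25 slope rises in WT, 19 rises over 120 min in each line and 3 higher at 120 min. Centring on the brightest 10% gave 5 slope rises in KO and 3 in WT, 3 rises over 120 min in each line, 2 higher at 0 min, and 1 higher and 13 lower at 120 min. All probe sets of the members, a larger number, gave 27 slope rises in each line, 22 rises over 120 min in WT, 20 higher and 34 lower on average, 10 and 16 at 0 min, and 15 and 9 at 120 min. Experiments 1 to 3 alone gave 5 slope rises and 3 rises over 120 min in WT, 2 higher at 0 min and 2 lower at 120 min. Experiments 4 and 5 alone gave 5 slope rises in KO, 0 rises over 120 min in KO by limma (8 at an unadjusted p under 0.05), 3 higher on average, 1 higher and 4 lower at 0 min, and 1 higher at 120 min. Without the arrays at 0 min, 7 slopes rose in KO and 2 in WT. The difference of the changes, added after seeing the data, called 1 member where the slope difference called 0. Leaving out 1 experiment gave 0 to 1 slope differences, 9 to 15 slope rises in KO and 11 to 17 in WT, 7 to 13 rises over 120 min in KO and 7 to 12 in WT, 7 to 9 higher and 14 to 17 lower on average, 2 to 4 and 4 to 9 at 0 min, and 4 to 6 and 2 to 3 at 120 min. Dim probe sets lie near the floor of 8.13 and the brightest near the array maxima, which limits what either end resolves.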
